A study of Mus musculus with 10 samples.

Results

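The genes examined here encode the proteins that fuse synaptic vesicles with the presynaptic membrane: the vesicle SNAREs *Vamp1* and *Vamp2*, the target membrane SNAREs *Snap25* and *Stx1a*, the complexins *Cplx1*, *Cplx2* and *Cplx3*, and the calcium sensors *Syt1* and *Syt2*. These 9 genes were taken by their Ensembl identifiers from the 55414 genes counted in every library, and each symbol matched 1 identifier. They were chosen by name and function. *Vamp2* and *Cplx2* had in addition been singled out by the study from these same libraries, so that their difference between the groups describes these libraries and is not independent evidence.

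Dorsal root ganglia (DRG), which hold the cell bodies of somatosensory neurons and their glia, were collected from mouse embryos at E18.5, and their RNA was sequenced in bulk. The 5 *WD1* cKO embryos were *Wnt1* Cre/+; *Dach1* flox/flox, so that Cre under *Wnt1* regulatory sequence removed the floxed exon of the transcription factor *Dach1* in the neural crest, from which both neurons and glia of the DRG derive. The 5 controls were littermates that, as the series states, did not express Cre, and the *Dach1* flox line was kept on a mixed C57Bl/6J and CD1 background. The groups therefore differed both in the deletion and in carrying the Cre transgene, and these cannot be told apart. The study asked with this comparison which genes and which neuronal subtypes are affected when *Dach1* is lost early.

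Neurotransmitter is released when a VAMP on the vesicle zips together with syntaxin and SNAP-25 on the plasma membrane. Complexin binds the assembled bundle and both restrains and promotes fusion, and synaptotagmin triggers it once calcium enters the terminal. Somatosensory neurons transcribe these genes in the ganglion and send the proteins along their axons to central terminals in the spinal cord and to the periphery. A bulk library of DRG thus measures the transcripts of the cell bodies, and a smaller number of expressing neurons and less RNA per neuron cannot be told apart in it.

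The total count was 20465132 to 27528784 per library in controls and 19757596 to 34796562 in *WD1* cKO embryos. Levels are given in CPM, that is counts scaled to a common library size. *Dach1* was at 37.9 ± 2.40 CPM (SD, n = 5) in controls and 20.02 ± 0.677 CPM (SD, n = 5) in *WD1* cKO libraries, with no overlap. Groups follow the sample titles. The genotype recorded for each sample is the opposite of its title, and the level of *Dach1* goes with the titles. Neuronal markers of the DRG (*Tubb3*, *Isl1*, *Prph* and 9 others) summed to between 12833 and 15694 CPM in the 10 libraries, with overlapping groups. The litters were not named, and 3 further properties of the libraries bear on the genes below. *Xist*, which is transcribed from the inactive X chromosome of females, was at 958 to 1169 CPM in 2 control and 4 *WD1* cKO libraries and at 3.39 to 4.85 CPM in the others, so that the sexes were unequally spread over the groups. Libraries numbered 1 to 3 and those numbered 4 and 5 stood apart from each other in both groups. Across genes, the deviations of control and *WD1* cKO libraries from their group means had correlations of 0.29 to 0.43 among numbers 4 and 5. The correlations were -0.41 to -0.16 between the number sets and -0.091 to 0.39 among numbers 1 to 3, which were thus less uniform. Deviations from a group mean balance out, which by itself favours negative values between the sets. Control replicate 3 held spinal cord markers (*Slc6a5*, *Pax2*, *Olig1*, *Olig2* and 2 others) at a sum of 18.4 CPM, against 0.528 CPM or less in the other controls and 1.39 CPM or less in *WD1* cKO libraries.

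Since paralogs of these families are alike in sequence, it was first asked whether reads of one could be counted for the other. The stretches below show the longest run of bases shared by the coding sequences of each pair that the results turn on, in capitals, with 20 bases on either side, from the GENCODE M21 transcripts. The *Vamp1* and *Vamp2* coding sequences shared a run of 18 bases, at coding positions 127 to 144 of *Vamp1* and 121 to 138 of *Vamp2* in the longest annotated form of each.
*Vamp1*: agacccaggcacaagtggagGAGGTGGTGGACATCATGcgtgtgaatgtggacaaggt
*Vamp2*: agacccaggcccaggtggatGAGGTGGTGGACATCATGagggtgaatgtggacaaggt
Those of *Cplx1* and *Cplx2* shared 32 bases, at coding positions 28 to 59 of both.
*Cplx1*: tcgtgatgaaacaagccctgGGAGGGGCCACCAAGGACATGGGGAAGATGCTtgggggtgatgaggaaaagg
*Cplx2*: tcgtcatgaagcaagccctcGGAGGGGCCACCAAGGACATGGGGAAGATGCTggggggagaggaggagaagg
The longest run was 26 bases for *Syt1* and *Syt2*. Over all annotated transcripts, untranslated parts included, 0 words of 50 bases occurred in both members of any of these 3 pairs. The study's alignment allowed mismatches, so exact words alone cannot settle whether a read was counted for the paralog.

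8 of the 9 genes were abundant enough to be tested. On the scale of CPM per kilobase of exon, which allows levels to be compared between genes, *Cplx1* was the most abundant in controls, at 254 ± 23.5 (SD, n = 5), and ranked 71 of 17447 genes with an exon length. *Stx1a* followed at 95.0 ± 2.32 and *Vamp2* at 91.8 ± 5.36, and the ranges of these 2 genes over the controls overlapped. *Cplx2* was at 65.9 ± 5.51 and *Syt1* at 58.5 ± 4.53, again with overlapping ranges. *Snap25* was lower, at 47.0 ± 4.62, then *Syt2* at 24.5 ± 1.25 and *Vamp1* at 13.6 ± 2.35. All 8 were among the upper 22.0% of genes. Between neighbours in this order other than the 2 pairs named, the ranges over the controls did not overlap. Exon length counts every annotated exon, so a gene with many alternative exons, such as *Vamp1*, is placed lower by this scale than its main transcript would be.

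*Cplx3*, a complexin known above all from retinal ribbon synapses, had counts of 6, 13, 8, 3 and 8 in control replicates 1 to 5. In *WD1* cKO replicates 1 to 5 its counts were 7, 13, 7, 2 and 15. These counts correspond to 0.102 to 0.573 CPM, below the filter on low counts, and a difference was not detectable at this depth.

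*Vamp2* encodes synaptobrevin 2, the main vesicle SNARE of central synapses, and lies on chromosome 11. Its level in control replicates 1 to 5 was 349.6, 335, 375, 364 and 324 CPM. In *WD1* cKO replicates 1 to 5 it was 302, 332, 301, 289.8 and 292 CPM. 4 of the 5 *WD1* cKO libraries were below every control, and replicate 2 lay between the controls. The mean was 303.5 ± 17.1 CPM (SD, n = 5) against 349.6 ± 20.4 CPM (SD, n = 5), a difference of -13.2%. The log2 fold change was -0.20 (standard error 0.049, 95% interval -0.31 to -0.096), with an unadjusted p of 0.00137 in edgeR's quasi-likelihood test and a Benjamini-Hochberg adjusted p of 0.784 over 17490 genes.

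*Cplx2*, the complexin of many excitatory forebrain neurons, lies on chromosome 13. It was at 326, 300.4, 349.7, 353 and 294 CPM in control replicates 1 to 5 and at 257, 292, 278, 293 and 249.8 CPM in *WD1* cKO replicates 1 to 5. The groups did not overlap, although the highest *WD1* cKO library, at 293.3 CPM, was next to the lowest control, at 294.0 CPM. The mean was 273.8 ± 19.98 CPM (SD, n = 5) against 325 ± 27.1 CPM (SD, n = 5), a difference of -15.7%. Its log2 fold change was -0.25 (standard error 0.064, 95% interval -0.38 to -0.11), with an unadjusted p of 0.00221 and an adjusted p of 0.915 in the same test.

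*Vamp2* and *Cplx2* were the 2 of 8 tested members that passed the cut-off the study used (an unadjusted p under 0.005 and a log2 fold change beyond 0.15 in either direction), and both were lower in *WD1* cKO embryos. Over all genes tested, 0.177% passed it in this direction and 0.383% in either. As the study had named both genes from these libraries, nothing is read from their count. With adjustment over all genes, 0 of the 8 members had a p under 0.05 in edgeR, against 0.04% of all genes, and 0 had one in DESeq2, against 0.109% of all genes, whose Wald test gave adjusted p-values of 0.0642 for *Vamp2* and 0.135 for *Cplx2*. Its unadjusted p-values were 7.71e-05 and 0.000209. The study's methods name DESeq2, whereas its cut-off is applied here to edgeR's p unless DESeq2 is named. Fits with further terms or with a library left out were made in edgeR alone. At an unadjusted p under 0.05, the same 2 members passed in edgeR, against 4.50% of all genes. *Cplx2* was the 1 member whose groups did not overlap in the lower direction, as was true of 0.566% of genes. The plot of the members' levels shows each library.

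**Figure D1:**
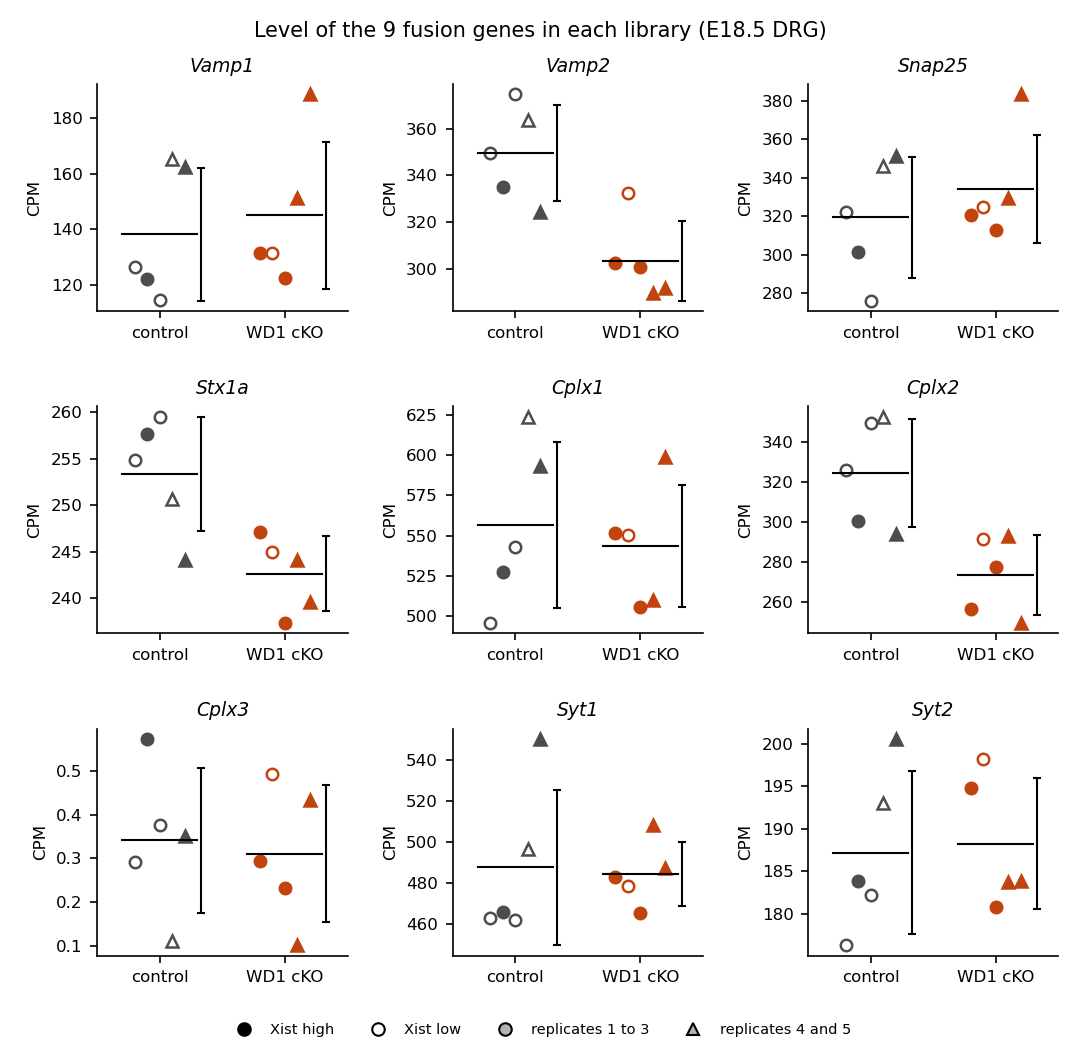
Level of each of the 9 genes in CPM, 1 point per library, for control (grey) and *WD1* cKO (orange) embryos. Lines are group means with the SD beside them (n = 5), filled points are libraries with high *Xist*, open points those with low *Xist*, circles are replicates 1 to 3 and triangles replicates 4 and 5. The axes do not start at 0. *Cplx2* is the gene whose 5 *WD1* cKO libraries all sit below the controls, with 293.3 next to 294.0 CPM.

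The partners of *Vamp2* and *Cplx2* in the fusion complex differed by less. *Stx1a*, the plasma membrane syntaxin, was at 255, 258, 259.6, 250.7 and 244 CPM in control replicates 1 to 5 and at 247, 245, 237, 244 and 239.6 CPM in *WD1* cKO replicates 1 to 5. It had the smallest spread of the 8 genes, and 2 *WD1* cKO libraries were below the lowest control. Its log2 fold change was -0.063 (95% interval -0.13 to 0.0016, unadjusted p = 0.0552 in edgeR's quasi-likelihood test). The interval excludes a change as large as the one fitted for *Vamp2* or *Cplx2* in either direction, although whether *Stx1a* changed less than these was not tested. With DESeq2's Wald test the unadjusted p of *Stx1a* was 0.0199, its adjusted p 0.9998.

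*Snap25*, which contributes the other target membrane SNARE, was at 322, 301, 276, 346 and 351 CPM in control replicates 1 to 5 and at 320.3, 325, 313, 329 and 383 CPM in *WD1* cKO replicates 1 to 5. The ranges overlapped, and the highest library of all was *WD1* cKO replicate 5. The log2 fold change was 0.065 (95% interval -0.093 to 0.22, unadjusted p = 0.388 in edgeR's quasi-likelihood test).

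*Vamp1*, the vesicle SNARE of motor nerve terminals and many spinal neurons, ranged from 114 to 165 CPM in controls and from 122 to 189 CPM in *WD1* cKO libraries. Its log2 fold change of 0.069 had the widest interval of the 8 genes, from -0.22 to 0.35, which also holds a change of the size fitted for *Vamp2*. With the number set as a term, chosen after the data were seen, it was 0.072 (standard error 0.052, unadjusted p = 0.188 in edgeR's quasi-likelihood test). Within each group, *Vamp1* followed the library numbers. In controls it was at 127, 122 and 114 CPM in replicates 1 to 3 and at 165 and 163 CPM in replicates 4 and 5. In *WD1* cKO embryos it was at 131, 131 and 122 CPM in replicates 1 to 3 and at 151 and 189 CPM in replicates 4 and 5. The libraries numbered 4 and 5 were thus higher without overlap in both groups, by 0.44 and 0.40 on the log2 scale. *Snap25* and *Syt1* did the same, *Snap25* by 0.22 in controls and 0.15 in *WD1* cKO libraries and *Syt1* by 0.17 and 0.065. *Cplx1* and *Syt2* were higher in numbers 4 and 5 without overlap in controls alone, by 0.22 and 0.12. *Stx1a* went the other way, at -0.057 without overlap in controls and -0.0075 with overlapping ranges in *WD1* cKO libraries. Several marker sums moved with this split. Those of large-diameter, neurofilament-rich neurons (*Nefh*, *Pvalb*, *Ntrk2*, *Ntrk3*, *Runx3*, *Etv1*, *Spp1*) summed to 1094 to 1308 CPM in libraries 1 to 3 and 1363 to 1556 CPM in libraries 4 and 5. Blood markers were lower in the latter without overlap, at 155 to 243 against 510 to 2471 CPM, and so were endothelial markers, at 213 to 225 against 237 to 266 CPM. The sum of the other release genes also stood apart, at 10375.5 to 10847 CPM in libraries 1 to 3 and 11017.5 to 11550 CPM in libraries 4 and 5. The part of these cell types in the levels of the members was not tested. *Vamp2* was lower in numbers 4 and 5, by 0.038 with overlapping ranges in controls and by 0.099 without overlap in *WD1* cKO libraries. *Cplx2* was lower there by 0.012 and 0.023, with overlapping ranges in both groups. The number sets were noticed in these same libraries. The share of all genes without overlap between them is not given here, so nothing particular to the members is read from it.

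*Cplx1*, a complexin prominent in inhibitory neurons and in the brainstem, and the most abundant member, ranged from 496 to 624 CPM in controls and from 506 to 599 CPM in *WD1* cKO embryos. The log2 fold change was -0.035 (95% interval -0.18 to 0.11, unadjusted p = 0.609 in edgeR's quasi-likelihood test).

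The calcium sensors had the smallest fitted changes of the 8 genes tested. *Syt1*, the principal fast sensor of forebrain synapses, was at 463, 466, 462, 497 and 550.2 CPM in control replicates 1 to 5 and at 483, 478, 466, 508 and 487 CPM in *WD1* cKO replicates 1 to 5. Its log2 fold change was -0.0091 (95% interval -0.12 to 0.10, unadjusted p = 0.861 in edgeR's quasi-likelihood test). *Syt2*, the sensor of fast hindbrain and neuromuscular synapses, ranged from 176 to 201 CPM in controls and from 181 to 198 CPM in *WD1* cKO embryos, with a log2 fold change of 0.0079 (95% interval -0.083 to 0.099). Within the number sets, *Syt2* differed by 0.079 in replicates 1 to 3 (unadjusted p = 0.102 in edgeR's quasi-likelihood test) and by -0.099 in replicates 4 and 5 (unadjusted p = 0.0426). Over all libraries, the intervals of both sensors exclude a decrease of the size fitted for *Vamp2*. *Syt2* overlaps *Ppp1r12b* on the opposite strand, which had a mean count of 2472 against 4674 for *Syt2*, and the strand setting of the counting is not given in the sources used here, so their reads cannot be assigned with certainty. *Vamp1* overlaps *Tapbpl* in the same way, at a mean count of 268 against 3577. No annotated gene overlaps *Vamp2*, *Cplx2*, *Stx1a* or *Cplx1*.

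5 of the 8 log2 fold changes were negative, against 49.9% of all genes tested, and their median was -0.022, against 0.00022 over all genes.

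Both genes past the study's cut-off were also lower in libraries with high *Xist*, of which the *WD1* cKO group held more. Among libraries with high *Xist*, *Vamp2* was at 324 and 335 CPM in the 2 controls and at 289.8 to 302 CPM in the 4 *WD1* cKO libraries. Among those with low *Xist*, it was at 349.6 to 375 CPM in the 3 controls and at 332 CPM in the 1 *WD1* cKO library. *Vamp2* was therefore lower in *WD1* cKO libraries within each class, without overlap, and lower with high than with low *Xist* within each group. *Cplx2* behaved alike in the class with high *Xist*, at 294.0 and 300.4 CPM in controls and 249.8 to 293.3 CPM in *WD1* cKO libraries. With low *Xist* it was at 326 to 353 CPM in the 3 controls and at 292 CPM in the 1 *WD1* cKO library, which here lay just below the highest *WD1* cKO library of the other class. The share of all genes separated in this way within the classes is not given here. As the study had named both genes from these libraries, nothing is read from the separation.

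With the *Xist* class as a term beside the genotype, chosen after the data were seen, the log2 fold change of *Vamp2* was -0.14 (standard error 0.035, unadjusted p = 0.00171 in edgeR's quasi-likelihood test). That of *Cplx2* was -0.18 (standard error 0.053, unadjusted p = 0.00706). Neither then passed the study's cut-off, *Vamp2* by its fold change and *Cplx2* by its p, and no other member passed, against 0.137% of all genes in the lower direction. The term itself, high against low *Xist*, was -0.15 for *Vamp2* (unadjusted p = 0.00158) and -0.17 for *Cplx2* (unadjusted p = 0.00911), and its adjusted p was 0.978 for both, so that 0 of the 8 members passed after adjustment in edgeR, against 0.0286% of all genes. At an unadjusted p under 0.05 it took these 2 of the 8 members, against 3.57% of all genes. Both were named by the study from these libraries, where high *Xist* was more frequent in the *WD1* cKO group, so nothing is read from this count. The other 6 had a p of 0.232 or more for this term.

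**Figure D2:**
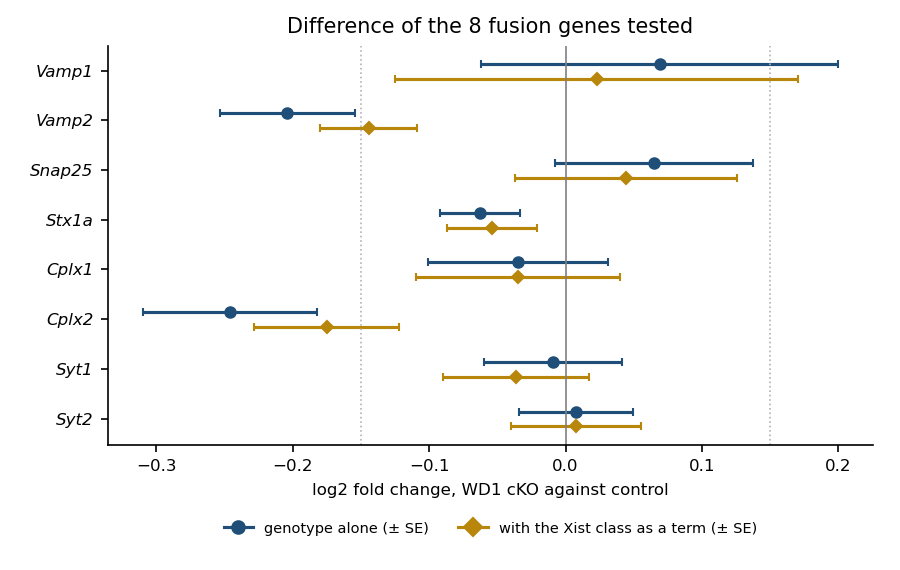
Log2 fold change of the 8 genes tested, *WD1* cKO against control, with the standard error, from the fit with genotype alone (circles) and with the *Xist* class as a second term (diamonds). Dotted lines mark the study's limit of 0.15 in either direction. *Vamp2* moves from -0.20 to -0.14 and *Cplx2* from -0.25 to -0.18, while the other 6 genes lie within 0.07 of 0 in both fits.

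*Vamp2* and *Cplx2* also went together library by library. Over the 10 libraries, Pearson's r of their log2 CPM was 0.89, a description that includes what the libraries share, namely the group, the *Xist* class and the number set. *Cplx2* ranked 18 among all genes by likeness to *Vamp2*, and *Vamp2* ranked 8 by likeness to *Cplx2*. The genes nearest to *Vamp2* were *Sept5* (r = 0.95), *Gm49743* (r = 0.94) and *Ube2m* (r = 0.94). Those nearest to *Cplx2* were *Pigs* (r = 0.93), *Man2b2* (r = 0.92) and *Srebf1* (r = 0.92). All 6 had negative log2 fold changes, from -0.11 to -0.24. They were chosen by likeness over all 10 libraries, the group difference included, so nothing is read from their direction or from the ranks.

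**Figure D3:**
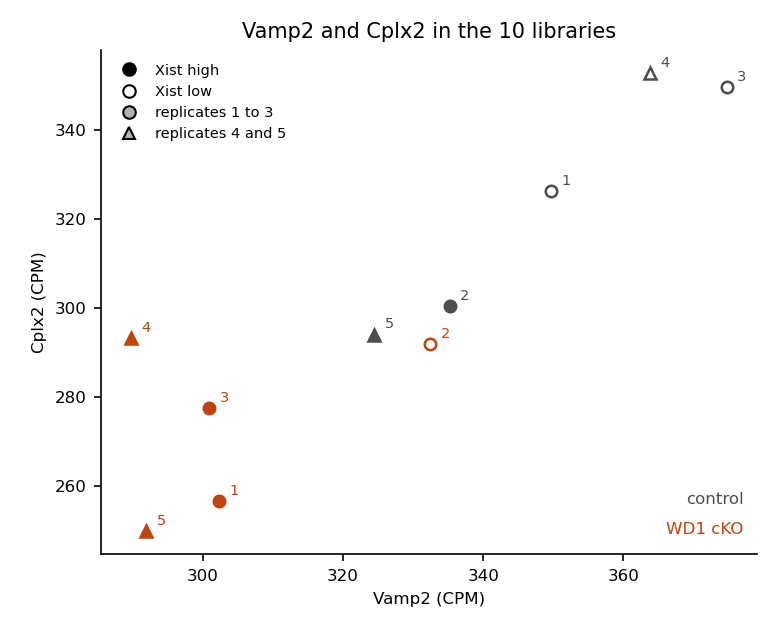
*Cplx2* against *Vamp2*, both in CPM, in the 10 libraries, labelled by replicate number and coloured by group (control grey, *WD1* cKO orange); filled points have high and open points low *Xist*, circles are replicates 1 to 3 and triangles replicates 4 and 5. The 3 controls with low *Xist* lie highest on both axes, and the 4 *WD1* cKO libraries with high *Xist* at 302 CPM of *Vamp2* or less. The other 3 libraries lie between them on the *Vamp2* axis.

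Within the number sets, *Vamp2* differed by -0.18 in replicates 1 to 3 (unadjusted p = 0.0126 in edgeR's quasi-likelihood test) and by -0.24 in replicates 4 and 5 (unadjusted p = 0.00494). *Cplx2* differed by -0.24 (unadjusted p = 0.00599) and by -0.26 (unadjusted p = 0.0397). Without control replicate 3, the library with spinal cord markers and the highest *Vamp2*, the log2 fold change was -0.18 for *Vamp2* (unadjusted p = 0.00368) and -0.22 for *Cplx2* (unadjusted p = 0.00634), the latter no longer past the study's cut-off. Leaving out 1 library at a time, *Vamp2* passed this cut-off in 10 of 10 fits. *Cplx2* passed in 5 of 10, and not without control replicate 1, 3 or 4 or *WD1* cKO replicate 1 or 5, where its log2 fold change was -0.24 to -0.21 and its unadjusted p 0.00504 to 0.00698 in edgeR's quasi-likelihood test. Scaling the libraries to the neuronal markers in place of all genes gave -0.19 for *Vamp2* (unadjusted p = 0.0132) and -0.23 for *Cplx2* (unadjusted p = 0.0185), and neither passed.

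The *Wnt1*-Cre transgene is known to lie at *H2az2* on chromosome 11, the chromosome that also carries *Vamp2*. *H2az2* was at 24.4 ± 1.88 CPM (SD, n = 5) in controls and at 12.5 ± 1.04 CPM (SD, n = 5) in *WD1* cKO libraries. Of the 5 tested genes on either side of *Vamp2*, 0 of 10 had an unadjusted p under 0.05 in edgeR (lowest 0.0664), with log2 fold changes from -0.21 to 0.13. 8 of the 10 were negative, against 49.9% of all genes tested, and their median was -0.055. The nearest were *Tmem107*, at -0.021 (unadjusted p = 0.813), and *Per1*, at -0.049 (unadjusted p = 0.455). Around *Cplx2*, 0 of 10 genes had an unadjusted p under 0.05 in edgeR (lowest 0.239), with log2 fold changes from -0.17 to 0.12. 5 of the 10 were negative, and their median was 0.0047. The nearest were *Gm48623*, at -0.013, and *Thoc3*, at -0.045. Gene order is that of GRCm38, and the distance from *Vamp2* to *H2az2* is not given here. A difference in strain sequence linked to the transgene was not tested.

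The balance between paralogs was compared as the log2 ratio of their counts within a library, which does not depend on scaling. *Vamp2* and *Cplx2*, which the study had named from these libraries, are denominators here. Their lower levels in *WD1* cKO libraries enter these ratios, which are therefore not independent evidence. The ratio of *Vamp1* to *Vamp2* was -1.46, -1.46, -1.71, -1.14 and -0.997 in control replicates 1 to 5. In *WD1* cKO replicates 1 to 5 it was -1.20, -1.34, -1.30, -0.94 and -0.63. *Vamp2* was the more counted of the pair in all 10 libraries. The ratio differed by 0.27 between the group means, -1.08 ± 0.30 against -1.35 ± 0.28 (SD, n = 5 each), which an exact permutation test over the 10 libraries did not tell from the spread (two-sided p = 0.183, adjusted p = 0.365 over the 4 ratios computed, of which 3 are given). It was higher in replicates 4 and 5, at -1.14 to -0.63, than in replicates 1 to 3, at -1.71 to -1.20, and the difference between the group means was 0.28 within the former and 0.26 within the latter. The groups did not overlap within either set, and all 5 differences between same-numbered libraries were positive, which the test over the 10 libraries does not take into account. A sign-flip test of these differences gave an adjusted p of 0.188, and its unadjusted p cannot fall under 0.0625. The numbers were not taken as pairs, and nothing is read from this separation.

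The ratio of *Cplx1* to *Cplx2* was 0.60, 0.81, 0.64, 0.82 and 1.01 in control replicates 1 to 5. In *WD1* cKO replicates 1 to 5 it was 1.10, 0.92, 0.87, 0.80 and 1.26. *Cplx1* thus prevailed everywhere, and the groups overlapped. The means were 0.99 ± 0.19 in *WD1* cKO and 0.78 ± 0.17 in control libraries (SD, n = 5 each), a difference of 0.21 (exact two-sided permutation p = 0.103, adjusted p = 0.365). The ratio of *Syt2* to *Syt1* differed by 0.015 (exact two-sided permutation p = 0.730, adjusted p = 0.921). The smallest p these tests allow is 0.00794.

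**Figure D4:**
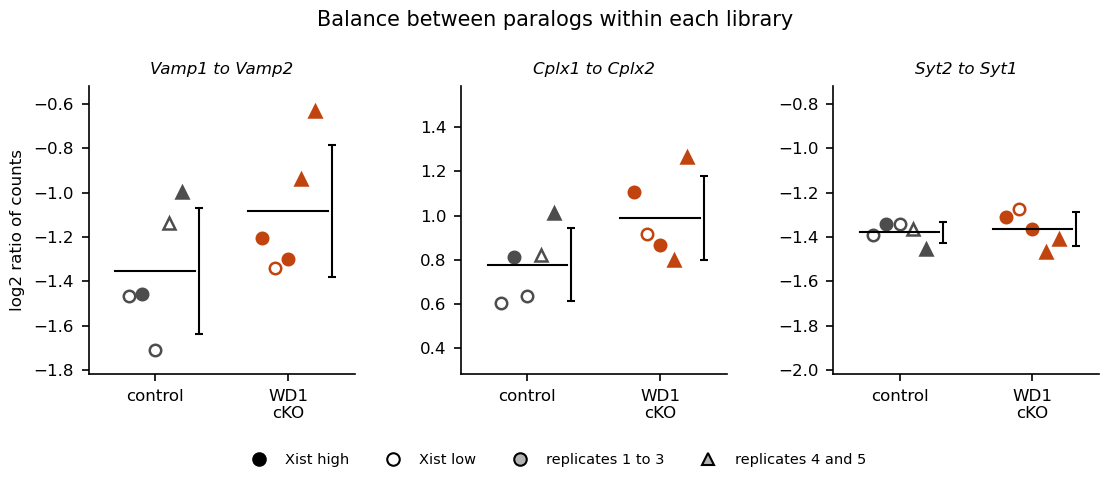
Log2 ratio of the counts of 2 paralogs in each library, in 3 pairs, for control (grey) and *WD1* cKO (orange) embryos, with the group mean and SD (n = 5). Filled points have high and open points low *Xist*, circles are replicates 1 to 3 and triangles replicates 4 and 5, and all panels span the same number of log2 units. The ratios of *Vamp1* to *Vamp2* and of *Cplx1* to *Cplx2* are spread over more than the difference between their means, 0.27 and 0.21.

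The rest of the release machinery was described from a list of 72 genes in 7 roles, of which 71 were matched by symbol and 68 tested. 32 of the 68 had a negative log2 fold change, against 49.9% of all genes, and their median was 0.0030. With an unadjusted p under 0.05 in edgeR's quasi-likelihood test, 2 were lower, against 2.38% of all genes, and 1 was higher, against 2.12%. After adjustment, 0 of the 68 had a p under 0.05 in edgeR and 1, *Cadps2*, had one in DESeq2's Wald test (adjusted p = 0.0413), against 0.109% of all genes.

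The gene that was higher, *Cadps2*, encodes an activator of dense-core vesicle priming. It was at 12.5, 13.5, 11.3, 14.4 and 13.5 CPM in control replicates 1 to 5 and at 17.4, 17.4, 16.0, 15.0 and 20.4 CPM in *WD1* cKO replicates 1 to 5. The groups did not overlap, as was true of 0.497% of all genes in the higher direction. Its log2 fold change was 0.40 (standard error 0.089, unadjusted p = 0.000642, adjusted p = 0.561 in edgeR's quasi-likelihood test), and it was the 1 gene of the list past the study's cut-off, which 0.206% of all genes passed in this direction. Its paralog *Cadps*, at a mean of 491 CPM the most abundant gene of priming and the active zone, had a log2 fold change of -0.00024 (95% interval -0.11 to 0.11).

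*Slc17a8*, the vesicular glutamate transporter VGLUT3 of C-fibre low-threshold mechanoreceptors, was at 5.51, 7.45, 6.21, 5.34 and 5.89 CPM in control replicates 1 to 5. It was at 5.60, 3.95, 4.54, 5.34 and 4.42 CPM in *WD1* cKO replicates 1 to 5, with overlapping groups and a log2 fold change of -0.36 (unadjusted p = 0.0119 in edgeR's quasi-likelihood test). Unlike *Vamp2* and *Cplx2*, it was higher with high *Xist*, by 0.27 (unadjusted p = 0.0432 in the same test). With the *Xist* class as a term, 1 of the 68 genes tested passed the study's cut-off in the lower direction, against 0.137% of all genes. Which gene this was is not reported here. *Syn1*, which tethers vesicles in the reserve pool and lies on the X chromosome, ranged from 237 to 288 CPM in controls and from 224 to 253 CPM in *WD1* cKO libraries, with a log2 fold change of -0.13 (unadjusted p = 0.0494).

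Of the most abundant gene of the other roles, the following were also close between the groups. *Syt11*, a synaptotagmin that does not bind calcium, was at -0.0051 (95% interval -0.10 to 0.090). *Sv2c*, a vesicle glycoprotein, was at 0.0060 (95% interval -0.13 to 0.14). *Snap47* was at 0.0037 and *Vamp4*, a SNARE of the trans-Golgi network and endosomes, at 0.0095. *Cplx4*, the remaining complexin, was not tested, with a mean of 0.0066 CPM.

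**Figure D5:**
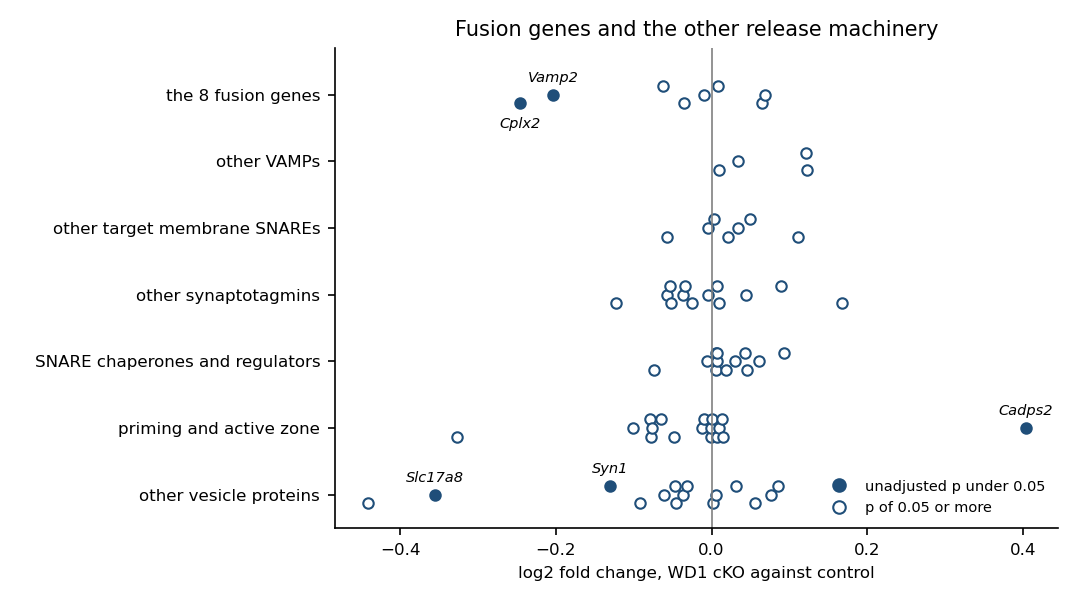
Log2 fold change, *WD1* cKO against control, of the 8 genes tested and of 68 other genes of the release machinery by role, 1 point per gene, offset vertically for legibility. Filled and labelled points have an unadjusted p under 0.05 in edgeR's quasi-likelihood test: *Vamp2*, *Cplx2*, *Syn1* and *Slc17a8* below 0 and *Cadps2* above it, at 0.40.

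For each list of markers of the cell types that the dissected ganglia could hold, the summed levels of the groups overlapped. Glial markers (8 genes) summed to 1005 to 1176 CPM in controls and 982 to 1268 CPM in *WD1* cKO libraries, nociceptor markers (8 genes) to 3015 to 3584 and 3066 to 3387 CPM, and endothelial markers (4 genes) to 223 to 266 and 213 to 264 CPM. Macrophage markers (4 genes) summed to 40.1 to 45.4 and 39.7 to 47.9 CPM, and connective tissue markers (6 genes) to 4191 to 5835 and 4635 to 5445 CPM. Blood and muscle markers (6 genes each) ranged widely, from 155 to 2471 and 189 to 1137 CPM for blood and from 28.2 to 197 and 51.3 to 108 CPM for muscle, and the groups overlapped. The part of any of these tissues in the levels of *Vamp2* and *Cplx2* was not tested beyond the scaling to neuronal markers above.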

How the data were processed

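RNA of the DRG of 10 embryos, 5 per group, was sequenced in bulk from stranded mRNA libraries. The authors deposited raw counts per gene, made with STAR 2.7.8a on GRCm39 and featureCounts 2.0.1 after bcl2fastq 2.20.0.422, according to the submitters' processing notes and the study's methods. The handling of reads with several matches, which bears on paralogs, is not given in the sources used here.

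The main test was the quasi-likelihood test of edgeR 4.0.16 (R 4.3.3) on TMM-scaled counts, with genotype as its one term. A gene entered when 5 or more libraries had 10 or more counts, which left 17490 genes, over which p-values were adjusted by Benjamini-Hochberg. The study's methods name DESeq2, whose version 1.42.0 was an alternative here. The filter and the scaling can change the number of genes called, and the total count per library sets the precision. Intervals are 95%. Levels are CPM with TMM library sizes, and exact permutation tests were two-sided. No pair of libraries of a group was alike enough to be 1 library deposited again (chi-square per degree of freedom of 4.33 to 15.7 over 20 pairs). No label says which embryos shared a litter, and p-values measure the spread between these libraries.

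Symbols, gene order and exon lengths came from GENCODE M21 (GRCm38), which gave a symbol to 52081 of 55414 identifiers. The tests were tried on simulated data with the same groups and library sizes and 17296 genes, but without *Xist* class or number set. Of 200 genes given a change, edgeR found 142, with 4 false calls, and DESeq2 found 152, with 16 false calls. Members and lists were chosen with earlier results of these data known. Named genes were all members, *Dach1*, *H2az2*, the release machinery genes with an unadjusted p under 0.05, the most abundant gene of each role, the nearest tested neighbours and the 3 most alike genes of *Vamp2* and *Cplx2*, and marker genes. *Vamp7*, a listed VAMP, was not analysed here, and some genes of this rule are not reported here. The alternatives were other size factors, other filters, DESeq2's Wald test, the replicate block, robust dispersions, *Xist* as a covariate, scaling to neuronal markers, each library left out, and, added after the data were seen, terms or subsets by number set and *Xist* class.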

Additional observations from a re-analysis of the deposited data

Results flagged for a closer look

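Among 24 groups of 5 libraries examined, those of the 9 members and the 3 ratios, 1 held a library that stood apart from the other 4 by Dixon's criterion, where chance alone would give 1.2. It was *Snap25* in *WD1* cKO replicate 5, with a level of 383 CPM, while the 4 others of that group lay between 313 and 329 CPM. Without it, the log2 fold change of *Snap25* was 0.0075 in place of 0.065 (unadjusted p = 0.9099 in edgeR's quasi-likelihood test).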

How the results depend on the processing

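Of the values from the alternatives tried, 247 were classed as the same, 34 as moved, 16 as weaker and 15 as reversed. For counts of genes, the same class allowed a shift, such as from 67 to 96 without *WD1* cKO replicate 1. With adjusted p under 0.05, 7 genes became 19 with DESeq2's Wald test, 4 with a minimum mean count of 100, 4 with *Xist* as a covariate or its class as a term, 11 with the number set as a term, 2 within numbers 1 to 3, 3 within numbers 4 and 5, and 3 to 6 with a library left out. Past the study's cut-off, 67 genes became 128 without a filter, 117 with the number set, 142 within numbers 4 and 5, 101 with *Xist* class and number set, and 52 to 96 with a library left out. Of the members, 2 passed it, and 0 did with *Xist* as a covariate or class, with class and number set, with scaling to pan-neuronal genes and within numbers 1 to 3, 1 within numbers 4 and 5, and 1 to 2 with a library left out. Of the other release genes 1 passed, also with the number set alone as a term, and 2 with *Xist* as a covariate, its class, or class and number set together.

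*Vamp2* no longer passed at -0.146 with *Xist* as a covariate, -0.144 with its class and -0.149 with class and number set. These fits missed the limit of 0.15 alone, with unadjusted p of 0.00171, 0.00171 and 0.000499 in edgeR's quasi-likelihood test. By its p, *Vamp2* did not pass at -0.19 scaled to pan-neuronal genes and -0.18 within numbers 1 to 3. *Cplx2* did not pass at -0.18 with either form of *Xist*, -0.17 with class and number set, -0.23 scaled to pan-neuronal genes, -0.24 within numbers 1 to 3 and -0.26 within numbers 4 and 5, and ranged from -0.28 to -0.21 with a library left out. Changes near 0 turned sign: *Cplx1* at 0.036 and *Syt1* at 0.035 within numbers 1 to 3, *Syt1* at 0.00073 without a filter and 0.0065 scaled to pan-neuronal genes, and *Syt2* at -0.099 within numbers 4 and 5 (unadjusted p = 0.0426, edgeR). With a library left out, *Vamp1* ranged from -0.049 to 0.14, *Cplx1* from -0.075 to 0.0096, *Syt1* from -0.028 to 0.038, *Syt2* from -0.013 to 0.034 and the ratio of *Syt2* to *Syt1* from -0.0083 to 0.041. The causes were not tested.

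Same-numbered libraries deviated together in 4 of 5 pairs (r = 0.33, 0.37, 0.36 and 0.42) but not in pair 2 (r = -0.020), and not every library was most alike to its own number, so the numbers were not taken as pairs. With the replicate block, 133 genes passed the study's cut-off, and *Vamp2* (-0.20, unadjusted p = 0.00159) and *Cplx2* (-0.24, unadjusted p = 0.000318, edgeR) remained past it. Depth limited *Cplx3*, whose counts were at most 15. In simulated data for this comparison, edgeR recovered 48% of genes changed by 0.3 on the log2 scale, a larger change than those of *Vamp2* and *Cplx2*. Those genes were drawn at random from all genes tested, whatever their level, so the share is not the power for *Vamp2* and *Cplx2*.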
